A study of Homo sapiens with 12 samples.

Results

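The endothelin axis was followed here through the 6 genes EDN1, EDN2, EDNRA, EDNRB, ECE1 and ECE2, taken by symbol from the 19677 genes listed in the count tables. The set was chosen because EDN1 falls with bezafibrate, so the drug values of EDN1 are given as a description with no test, and the other 5 genes came in by their role. RNA was sequenced from CAOV3 cells, an established human epithelial line from an ovarian carcinoma of the high-grade serous kind, labelled wild type and grown with 10% fetal bovine serum. The 12 libraries formed 4 groups of 3: a control with DMSO as solvent and no time in its label, 10% ascites from ovarian cancer (fluid from the abdominal cavity) with DMSO for 16 hours, bezafibrate at 200 uM for 16 hours, and a combination of 200 uM bezafibrate and 10% ascites for 16 hours. Bezafibrate is a lipid-lowering fibrate that acts on the PPAR family of nuclear receptors. DMSO is named only for the groups without the drug, so each drug comparison includes any difference in solvent. All groups come from 1 cell line, and the labels do not say whether replicates were separate cultures or whether the ascites had 1 source, so n counts libraries and p values measure the spread between these libraries, which may be technical.

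Endothelins are short secreted peptides that act on neighbouring cells. EDN1 and EDN2 encode precursor proteins that furin-type proteases trim to a big endothelin, and the membrane metalloproteases encoded by ECE1 and ECE2 cut this to the active peptide. The peptide binds the G protein-coupled receptors encoded by EDNRA and EDNRB, which raise calcium through Gq proteins, phospholipase C and inositol trisphosphate receptors; in serous ovarian cancer the pair of EDN1 and EDNRA is known as an autocrine growth and invasion signal.

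Total counts ran from 11831093 to 18762759 per library. Principal component 1 (37.0% of variance) parted the 6 libraries with the drug from the 6 without it, and combination replicate 3 stood apart on the second component (9.88%). Keratins marked the cells as epithelial, with KRT8 at 3000 CPM (counts scaled to a common library total) and KRT18 at 1780 CPM in control. Of the other 8 markers of serous epithelium, KRT7 stood at 762 CPM in control, MECOM at 38.9, EPCAM at 27.6 and CDH1 at 18.6, while SOX17 had 0 counts, MUC16 10 and WT1 15 over all 12 libraries, and PAX8 averaged 0.378 CPM in control.

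EDN1 (ENSG00000078401.7) lies on chromosome 6 at 12290363 to 12297194 on the plus strand in GENCODE v29 (GRCh38). The 300 bases around its start site, chr6:12290111-12290410 on the plus strand of GRCh38.p14, are shown because the factors known to act on them are described further on. RefSeq lists 3 starts for the gene, and the window belongs to the one nearest to the GENCODE start, with 250 bases before it and 50 after. Capitals mark the letters matched in a search of both strands, and positions count from 1 at the start site with no base 0.

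EDN1 promoter: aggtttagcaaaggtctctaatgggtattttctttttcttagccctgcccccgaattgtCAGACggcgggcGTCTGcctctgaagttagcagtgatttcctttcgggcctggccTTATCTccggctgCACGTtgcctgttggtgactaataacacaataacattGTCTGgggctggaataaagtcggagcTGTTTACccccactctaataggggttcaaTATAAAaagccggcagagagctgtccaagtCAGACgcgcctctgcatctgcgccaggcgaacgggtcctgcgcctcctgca

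The window holds 1 match to the GATA letters AGATAA on the minus strand (bases -136 to -131 from the start site) and 1 to the hypoxia response letters ACGTG on the minus strand (-123 to -119). It also holds 1 match to the FOXO letters GTAAACA on the minus strand (-60 to -54), a TATA box TATAAA on the plus strand (-31 to -26) and 4 matches to the SMAD letters CAGAC. No match was found to the AP-1 letters TGANTCA, the TEAD letters GGAATG or the PPAR response element (a direct repeat of AGGTCA with 1 base between). No marked match overlaps another. Of 35116 RefSeq promoter windows of this length, 10.3% hold the GATA letters, 21.4% the hypoxia letters, 3.42% the FOXO letters, 11.5% the TATA box and 45.3% the SMAD letters. The shares were 7.71% for AP-1, 14% for TEAD and 0.0228% for the PPAR response element. A match describes letters and shows no binding. The search took exact letters, so a missing match does not show that a site is absent. The window holds TGACTAA, which differs from the AP-1 letters by 1 base and was not counted.

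The ligand EDN1 was present at a low level in all 12 libraries, while the receptors and the second ligand were at or near 0. CPM values here use TMM-scaled library totals. The control libraries gave 26, 27 and 17 counts of EDN1, or 1.77, 1.98 and 1.35 CPM. The ascites libraries gave 24, 28 and 27 counts, or 1.71, 2.18 and 1.82 CPM. The ranges of these groups overlapped, with control replicate 3 below all ascites libraries and ascites replicate 2 above all controls. The bezafibrate libraries gave 18, 15 and 15 counts, or 1.08, 0.807 and 1.03 CPM. With drug and ascites together the counts were 8, 12 and 7, or 0.469, 1.02 and 0.591 CPM. Every library with the drug lay below every library without it, and the bezafibrate and combination libraries overlapped. EDN1 was chosen for its fall with bezafibrate, and the share of all genes parted in this way is not given here.

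**Figure D1:**
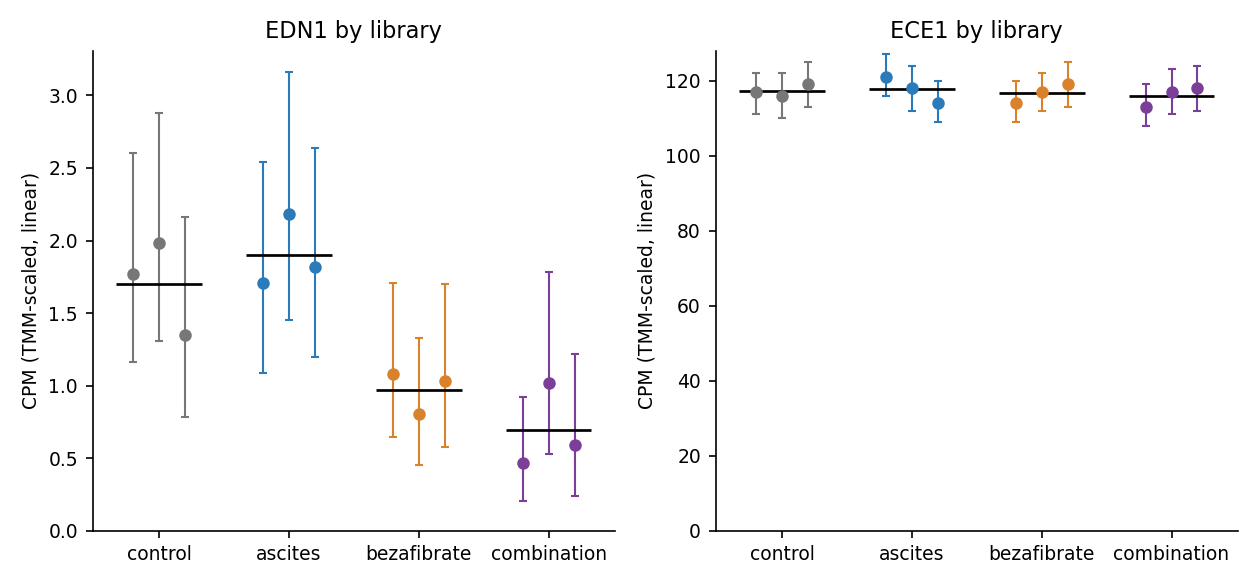
EDN1 (left) and ECE1 (right) in CPM on linear axes from 0, 1 point per library in each of the 4 groups, with 95% exact Poisson intervals of the count as bars and the group mean as a black line. EDN1, chosen for its fall with bezafibrate, lies at 1.35 to 2.18 CPM in the 6 libraries without the drug and at 0.469 to 1.08 CPM in the 6 with it. ECE1 stays between 113 and 121 CPM in all.

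The mean level of EDN1 was 1.70 ± 0.323 CPM in control, 1.90 ± 0.250 with ascites, 0.974 ± 0.147 with bezafibrate and 0.693 ± 0.289 with both (SD, n = 3 each). In order of level, ascites stood above control and bezafibrate above the combination, and within each of these neighbouring pairs the libraries overlapped. With bezafibrate alone EDN1 stood at 0.568 of its control level, a log2 difference of -0.82 with an SE of 0.30. With ascites present it stood at 0.355 of the level in ascites alone, a log2 difference of -1.49 with an SE of 0.33. Averaged over both media the log2 difference was -1.16 (SE 0.22). These values chose the gene and are not evidence of their own direction. Among the 12470 genes tested, 0.858% had a lower value than EDN1 for bezafibrate against control and 0.152% for the combination against ascites. In bulk RNA, fewer cells that make EDN1 and less EDN1 RNA per cell cannot be told apart.

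The spread of EDN1 within groups was no larger than counting error gives. A single count in these libraries carried a relative counting error of 18.9% to 37.8%, and the counts varied within groups by 0.821 of what Poisson sampling gives (chi-square per degree of freedom). The summed counts were 70 in control, 79 with ascites, 48 with bezafibrate and 27 with both. As rates these were 1.71 CPM (95% exact Poisson interval 1.33 to 2.16) in control and 1.89 (1.50 to 2.36) with ascites. With bezafibrate the rate was 0.965 (0.711 to 1.28) and with both 0.664 (0.437 to 0.966), intervals that cover counting error only. Without combination replicate 2, the highest library of its group, the log2 difference for the combination against ascites was -1.85, without combination replicate 1 it was -1.23, and without combination replicate 3 it was -1.43.

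The comparisons of ascites with its absence share all their libraries with the drug comparisons that chose EDN1, so they are not independent of that choice. Ascites alone gave a log2 change of 0.15 for EDN1 (SE 0.27, 95% interval -0.40 to 0.70, edgeR adjusted p 0.983). In drug-treated cells ascites gave -0.53 (SE 0.36, 95% interval -1.27 to 0.21, edgeR adjusted p 1). Both 95% intervals include 0. The value averaged over drug was -0.19 (SE 0.23, 95% interval -0.65 to 0.27, edgeR adjusted p 0.943). The interaction is by construction the difference between the drug values that chose EDN1, so it is given as a description, with no test: it was -0.68 with an SE of 0.45. The combination group was lowest in mean, and its libraries overlapped those with bezafibrate alone.

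ECE1 (ENSG00000117298.16, chromosome 1 at 21217247 to 21345572, minus strand, GENCODE v29), the converting enzyme, was abundant and level across the groups. Control libraries gave 117, 116 and 119 CPM, and ascites libraries 121, 118 and 114 CPM. Bezafibrate libraries gave 114, 117 and 119 CPM, and combination libraries 113, 117 and 118 CPM. All 4 groups overlapped. The log2 fold change was -0.01 with bezafibrate (SE 0.038, 95% interval -0.08 to 0.07, edgeR adjusted p 0.959) and -0.02 for the combination against ascites (SE 0.039, 95% interval -0.10 to 0.06, edgeR adjusted p 0.770). With ascites it was 0.01 (SE 0.039, 95% interval -0.07 to 0.09, edgeR adjusted p 0.993). These intervals bound a change in ECE1 far more tightly than the depth allowed for EDN1.

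**Figure D2:**
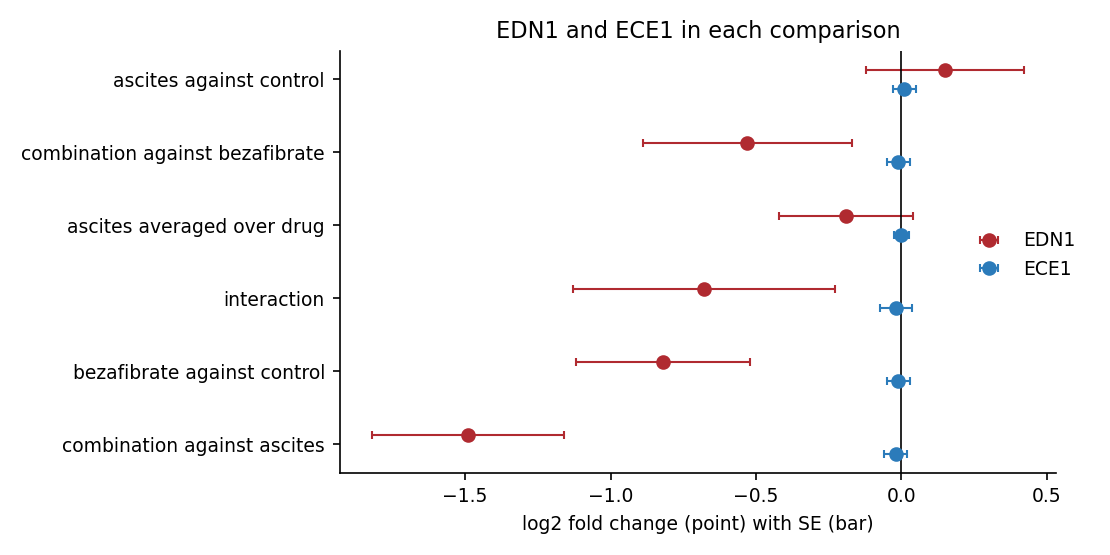
Log2 fold changes of EDN1 (red) and ECE1 (blue) in 6 comparisons, with points for the fitted value and bars for its SE. ECE1 lies within 0.02 of 0 in each, and EDN1 lies lowest at -1.49 for the combination against ascites; the drug values of EDN1 are those that chose it.

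Per kilobase of exon in GENCODE v29, EDN1 stood at 0.837 ± 0.159 CPM per kb in control and ECE1 at 16.0 ± 0.204 CPM per kb (SD, n = 3). Over the 12 libraries, 32.6% of the 16324 genes with any count had a lower level per kb than EDN1 and 81.4% a lower one than ECE1. On this scale the converting enzyme stood well above the precursor it cuts.

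The remaining members were not detected or nearly so. EDN2 (ENSG00000127129.10), the second ligand, had 0 counts in each of the 12 libraries; with 3 counts taken as the limit of a count of 0, its level could reach 0.0173 CPM over the series. EDNRA (ENSG00000151617.17), the receptor that prefers the peptides of EDN1 and EDN2, also had 0 counts in all libraries, with the same limit of 0.0173 CPM. Within a single group of 3 libraries the limit lay between 0.0603 and 0.0737 CPM, so a receptor message induced in 1 treatment alone would have passed unseen below that level. EDNRB (ENSG00000136160.17), the receptor that binds all endothelins and also clears them, had 1 count, in bezafibrate replicate 3, or 0.00578 CPM over the series (95% exact Poisson interval 0.000146 to 0.0322). ECE2 (ENSG00000145194.19) had 0 counts, and so had the read-through gene EEF1AKMT4-ECE2 that overlaps it, whereas EEF1AKMT4, the upstream gene of that read-through, had 808 counts. Only EDN1 and ECE1 of the 6 members passed the filter on low counts.

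With edgeR's quasi-likelihood test, 0 of the 2 tested members were called (adjusted p under 0.05) in any of the 3 ascites comparisons, 0 had an unadjusted p under 0.05, and DESeq2 called 0. The share of all tested genes called was 0.0882% for ascites against control and 0.128% for the combination against bezafibrate. It was 0.281% for ascites averaged over drug and 0% for the interaction, in which ECE1 was not called either (edgeR adjusted p 0.999). In the drug comparisons 17.6% of all genes were called for bezafibrate against control and 17.8% for the combination against ascites. Of the 5 members other than EDN1, ECE1 alone could be tested there, and it was not called by edgeR or DESeq2 (0 with an unadjusted p under 0.05).

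Because EDN1 is best known from endothelium, markers of other cells were read beside it. Of 12 endothelial markers, KDR and EMCN had 0 counts over the 12 libraries, CDH5 and ROBO4 had 1 each and TEK 2. PECAM1 had 75 counts (0.435 CPM on average), TIE1 21, CLDN5 17, VWF 14 and FLT1 14, and none of these was tested. The summed endothelial list lay at 37.7 to 41.5 CPM in control and 34.9 to 39.0 with ascites. It lay at 39.0 to 40.3 with bezafibrate and 32.2 to 42.7 with both, and ESAM made up most of it (30.2 CPM on average). EGFL7, the other tested marker, was called higher with bezafibrate (log2 0.40, edgeR adjusted p 0.0267) and not called in the combination against ascites (0.31, edgeR adjusted p 0.105). Of 7 leukocyte markers PTPRC, CD3E, TYROBP, S100A8 and S100A9 were at 0, while CD14 had 460 counts (2.69 CPM on average) and LYZ 123. Of 6 platelet and red cell markers PPBP, PF4 and GP9 were at 0, while HBA1 had 94 counts, HBA2 51 and HBB 15. CD14, LYZ, HBA1 and HBA2 could be tested, and their edgeR adjusted p in the drug comparisons lay between 0.314 and 0.989.

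The tested fibroblast markers were lower with the drug, by differing amounts. Their summed level was 231 to 244 CPM in control and 229 to 236 with ascites, against 187 to 199 with bezafibrate and 184 to 199 with both. Of the 7 markers, 4 were tested and all 4 were called lower in both drug comparisons (edgeR), where 7.55% and 7.29% of all genes were called lower. With bezafibrate PDGFRA fell by 1.0 on the log2 scale, COL3A1 by 0.71, COL1A1 by 0.68 and LUM by 0.17. The defining markers FAP (0 counts), THY1 (1 count) and DCN (3 counts) were at or near 0. The 6 mesothelial markers summed to 2.21 to 4.67 CPM over all libraries, and the 2 tested, CALB2 and DES, had an edgeR adjusted p between 0.293 and 0.920 in the drug comparisons. Of the 10 serous epithelial markers 7 were tested, and 4 were called with bezafibrate and 3 with ascites present, against 17.6% and 17.8% of all genes. CDH1, the epithelial cadherin, rose by 1.52 and 1.69, KRT7 rose by 0.55 and 0.57, and MECOM had -0.35 and -0.30. PAX8, with 122 counts over all libraries, was called higher with bezafibrate (log2 1.48, edgeR adjusted p 0.0252). With ascites present it had a log2 value of 0.66 and was not called (edgeR adjusted p 0.440). The part of these genes in the EDN1 values was not tested.

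Around the members, 6 lists of related genes held 132 genes, of which 101 passed the filter. The drug called 42 of the 101 without ascites, 22 higher and 20 lower (41.6% against 17.6% of all genes, of which 10.1% higher and 7.55% lower), and 41 with ascites, 22 higher and 19 lower (40.6% against 17.8%, of which 10.5% higher and 7.29% lower). The lists were written with earlier results of these data known, so their shares are descriptions. The drug comparisons use separate libraries but share the same fit and its estimate of the spread, so they are not fully independent. Ascites against control called 0 of the 101 with edgeR and 0 with DESeq2, and 12 had an unadjusted p under 0.05, as did 749 of all 12470 genes.

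Of the list of EDN3 and the proteases that make and break endothelin, 6 of 12 genes were tested and 1 was called in each drug comparison, higher in both (16.7%, near the 17.6% and 17.8% of all genes; median log2 0.00 and 0.08). FURIN, a convertase that trims the precursor, stood at 212 ± 5.38 CPM in control and 224 ± 1.92 with bezafibrate (SD, n = 3), a log2 value of 0.08 that was not called (edgeR adjusted p 0.0838). It was called without combination replicate 3 (edgeR adjusted p 0.0411) and with only the groups compared (0.0388). In the combination against ascites it had 0.09 (edgeR adjusted p 0.0585) and was called without combination replicate 3 (0.0166). CTSA, a lysosomal carboxypeptidase that degrades endothelin, had a log2 value of 0.02 (edgeR adjusted p 0.830). MME, the neprilysin that also degrades endothelin, had 0 counts in all libraries, as had CMA1 and ECEL1. EDN3, the third ligand, had 1 count in all. The 1 called gene was PCSK6, a convertase of the furin family, at 0.28 with bezafibrate (edgeR adjusted p 0.00194) and 0.21 in the combination against ascites (edgeR adjusted p 0.0243). The second of these calls was lost without ascites replicate 1, ascites replicate 3 or combination replicate 3 (edgeR adjusted p 0.130, 0.175 and 0.105), with only the groups compared (0.0604) and with DESeq2 (adjusted p 0.0714).

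The machinery that carries endothelin receptor signals was expressed although the receptors were not detected. Of 30 such genes 28 were tested, and 8 were called higher and 3 lower with bezafibrate (39.3% in all, against 17.6% of all genes; median log2 0.02, against -0.0037 over all genes). With ascites present 6 were called higher and 2 lower (28.6%, against 17.8%). GNAQ, the Gq subunit the receptors use, stood at 70.5 ± 3.63 CPM in control and 66.3 ± 3.15 with bezafibrate (log2 value -0.09, edgeR adjusted p 0.287). GNA11, its close relative, had a log2 value of 0.02 (edgeR adjusted p 0.874). Neither Gq gene was called. PRKCD, a protein kinase C isoform downstream of diacylglycerol, rose from 40.5 ± 1.80 to 70.4 ± 3.93 CPM with bezafibrate, a log2 change of 0.80 (SE 0.053, edgeR adjusted p 8.24e-15). ITPR1, a calcium channel opened by inositol trisphosphate, rose by 0.67 (edgeR adjusted p 2.55e-07). GNA13, a G protein subunit that acts on the cytoskeleton, rose by 0.31 (edgeR adjusted p 3.92e-07). These 3 genes rose by 0.82, 0.77 and 0.30 in the combination against ascites and were called there too. RGS2, which speeds the shutdown of Gq, fell from 108 ± 1.86 to 66.8 ± 4.06 CPM, a log2 change of -0.70 (SE 0.046, edgeR adjusted p 5.27e-15). With ascites present its log2 fold change was -0.67 (edgeR adjusted p 3.16e-14).

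GRK5 and RGS16, which end receptor and G protein signalling, gave less stable values. GRK5 was called at 0.25 with bezafibrate (edgeR adjusted p 0.0345), and not without control replicate 2 or 3 or without bezafibrate replicate 1 or 3 (edgeR adjusted p 0.0764, 0.245, 0.149 and 0.0644), with upper-quartile scaling (0.0530) or with DESeq2 (adjusted p 0.0992). With ascites present it had a log2 value of 0.23 (edgeR adjusted p 0.0576), which was called without combination replicate 1 (edgeR adjusted p 0.00765) and without the filter on low counts (0.0487). RGS16 was called at -0.56 with bezafibrate (edgeR adjusted p 0.0358), and not without control replicate 1 or 2 or without bezafibrate replicate 1 or 3 (edgeR adjusted p 0.0974, 0.204, 0.0929 and 0.117) or with DESeq2 (adjusted p 0.130). With ascites present it had a log2 value of 0.26 (edgeR adjusted p 0.449).

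Of 32 transcription factors known to bind or control the EDN1 promoter, 31 were tested, and bezafibrate called 9 higher and 5 lower without ascites (45.2%, against 17.6% of all genes; median log2 0.02), 10 and 4 with it (45.2%, against 17.8%). Of the GATA factors, whose letters stand once in the printed window, GATA6 fell from 20.6 ± 1.76 CPM in control to 14.1 ± 1.06 with bezafibrate (SD, n = 3), a log2 change of -0.55 (SE 0.085, edgeR adjusted p 3.59e-06), and by 0.34 on the log2 scale with ascites present (edgeR adjusted p 0.00321). GATA2, the GATA factor best known at EDN1, had -0.24 (edgeR adjusted p 0.0461) and -0.30 (edgeR adjusted p 0.0155). The first call of GATA2 was lost in 9 of 12 fits with 1 library left out and the second in 2 of 12. For bezafibrate against control the adjusted p rose to between 0.0539 and 0.177 on leaving out any 1 control or ascites library, bezafibrate replicate 1 or 2, or combination replicate 1. For the combination against ascites it was 0.0631 without ascites replicate 2 and 0.0630 without ascites replicate 3. With the replicate number as a block both GATA2 calls were lost (edgeR adjusted p 0.11 and 0.0509). Of the hypoxia factors, EPAS1 (HIF-2 alpha) rose from 226 ± 0.704 to 360 ± 2.64 CPM, a log2 change of 0.67 (SE 0.031, edgeR adjusted p 1.72e-19), and by 0.71 with ascites present, while HIF1A had a value of 0.02 (edgeR adjusted p 0.769). EPAS1 was also called lower with ascites averaged over drug, at -0.10 (edgeR adjusted p 0.0428). That call held only without combination replicate 3 when libraries were left out in turn, and otherwise the adjusted p lay between 0.0739 and 0.231. The same EPAS1 call was lost with the replicate number as a block (edgeR adjusted p 0.0605).

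JUN, an AP-1 subunit, rose from 34.7 ± 2.45 to 61.6 ± 3.32 CPM with bezafibrate, a log2 change of 0.82 (SE 0.062, edgeR adjusted p 2.54e-13), and by 0.88 with ascites present. KLF4, a zinc finger factor, rose by 0.90 (edgeR adjusted p 8.66e-15) and 0.82. Its relative KLF2, known in endothelium to lower EDN1, was called at 0.72 and 0.58, the second call being lost without ascites replicate 2 or combination replicate 1 (edgeR adjusted p 0.0511 and 0.0596). Of the 3 PPAR genes, whose products fibrates bind, PPARD rose by 0.62 with bezafibrate (edgeR adjusted p 1.02e-05) and PPARG fell by 0.39 on the log2 scale (edgeR adjusted p 1.97e-08). PPARA, the main fibrate receptor, stood at 4.82 ± 0.508 CPM in control and 5.07 ± 0.649 with bezafibrate (edgeR adjusted p 0.777). PPARA was thus not called in either direction, and the PPAR genes were not tested against each other. FOXO1 had a log2 value of 0.14 (edgeR adjusted p 0.358). SMAD3, a carrier of TGF-beta signals, had -0.08 (edgeR adjusted p 0.0839), and it was called without combination replicate 3 (edgeR adjusted p 0.0426), with upper-quartile scaling (0.0288) and with only the groups compared (0.0466).

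Genes commonly induced together with EDN1 by serum, YAP or TGF-beta signalling fell more often than they rose. Of 18 such genes 17 were tested, and 10 were called lower and 2 higher with bezafibrate (median log2 -0.23, against -0.0037 over all genes; 7.55% of all genes were called lower). In the combination against ascites 9 were called lower and 2 higher (median log2 -0.23; 7.29% of all genes were called lower). ANKRD1, a YAP target, fell from 142 ± 4.46 to 62.6 ± 3.41 CPM with bezafibrate, a log2 change of -1.18 (SE 0.066, edgeR adjusted p 2.12e-10). CCN2, a matrix protein and YAP target, fell from 136 ± 5.58 to 69.5 ± 1.49 CPM, a log2 change of -0.97 (SE 0.042, edgeR adjusted p 3.88e-20). With ascites present the 2 genes had -0.88 and -0.80. F3, the tissue factor that starts coagulation, fell by 0.80 and TGFB2, a TGF-beta ligand, by 0.65 on the log2 scale (edgeR adjusted p 3.83e-08 and 2.79e-12). DLC1, a GTPase-activating protein, was called higher at 0.54 and 0.76, the first call being lost without control replicate 1 (edgeR adjusted p 0.122).

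**Figure D3:**
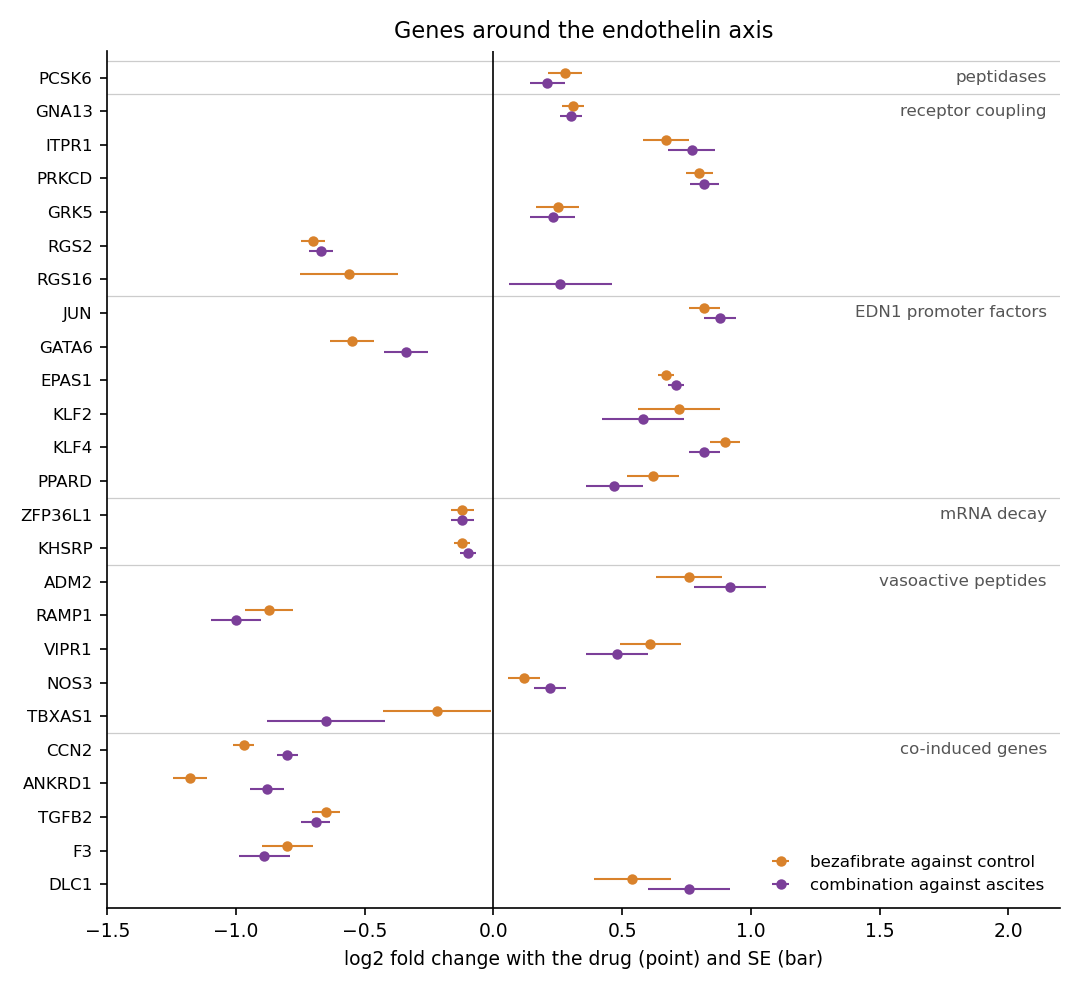
Log2 fold changes of the named list genes, grouped by list, for bezafibrate against control and the combination against ascites, with points for fitted values and bars for SE. ANKRD1 and CCN2 lie lowest at -1.18 and -0.97 without ascites, and DLC1 lies at 0.54 and 0.76.

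With ascites in drug-treated cells 3 genes of this list were called higher: CCN1 at 0.26, CCN2 at 0.23 and ANKRD1 at 0.40 (edgeR adjusted p 0.0125, 0.0139 and 0.0314), where EDN1 had -0.53; 0.0401% of all genes were called higher there. CCN1 and CCN2 lost the call without bezafibrate replicate 1 (edgeR adjusted p 0.158 and 0.163), bezafibrate replicate 2 (0.0584 and 0.0645) or combination replicate 2 (0.169 and 0.0873). ANKRD1 lost it in 10 of 12 fits with 1 library left out (edgeR adjusted p 0.0552 to 0.194), the exceptions being those without combination replicate 1 or 2. With only the groups compared in the fit, all 3 lost the call (edgeR adjusted p 0.10 for CCN1, 0.118 for CCN2 and 0.379 for ANKRD1). Averaged over drug, CCN1 was called at 0.18, CCN2 at 0.15 and ANKRD1 at 0.25 (edgeR adjusted p 0.00396, 0.0123 and 0.0289; 0.0481% of all genes were called higher). CCN1 kept this call whichever library was left out, CCN2 lost it in 3 of 12 such fits (edgeR adjusted p 0.0551 to 0.0693) and ANKRD1 in 9 of 12 (0.0508 to 0.144).

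Of 32 genes for other vasoactive peptides and their receptors 11 were tested, and bezafibrate called 2 higher and 1 lower (27.3%, against 17.6% of all genes; median log2 0.06), or 3 and 2 with ascites present (45.5%, against 17.8%; median log2 -0.05). RAMP1, which pairs with the calcitonin-like receptor to bind vasodilator peptides, fell from 21.3 ± 1.73 to 11.8 ± 0.875 CPM, a log2 change of -0.87 (SE 0.093, edgeR adjusted p 1.90e-09), and its change with ascites present was -1.0. ADM2, a vasodilator peptide, rose by 0.76 and 0.92, and VIPR1, a receptor of vasoactive intestinal peptide, rose by 0.61 and 0.48. NOS3, the endothelial nitric oxide synthase, was called at 0.22 with ascites present only (edgeR adjusted p 0.0107), and not without ascites replicate 1 or combination replicate 1 or 2 (edgeR adjusted p 0.0632, 0.0817 and 0.0618). TBXAS1, thromboxane synthase, was called at -0.65 there (edgeR adjusted p 0.0475). The call was lost in 9 of 12 fits with 1 library left out (edgeR adjusted p 0.0502 to 0.297), with only the groups compared (0.0821), with the replicate number as a block (0.052) and with DESeq2 (adjusted p 0.133). The receptor genes AGTR1 and CALCRL had 0 counts, as EDNRA did.

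Among 8 factors that set the decay of messages rich in A and U, as the EDN1 message is, 1 was called with bezafibrate. It was lower (12.5%, against 17.6% of all genes called and 7.55% called lower, median log2 -0.01). With ascites present 2 were called, both lower (25%, against 17.8% called and 7.29% called lower, median log2 -0.08). KHSRP had -0.12 and -0.10 (edgeR adjusted p 0.00499 and 0.0147), the second call being lost without ascites replicate 3 or combination replicate 3 (edgeR adjusted p 0.0765 and 0.108). ZFP36L1 had -0.12 in both (edgeR adjusted p 0.0554 and 0.0464), and the second call was lost in 7 of 12 fits with 1 library left out (edgeR adjusted p 0.0505 to 0.220), with only the groups compared (0.0895) and with DESeq2 (adjusted p 0.0816). The first gained a call with upper-quartile scaling (edgeR adjusted p 0.0249), with only the groups compared (0.0259) and without combination replicate 1 or 3 (0.0341 and 0.0242). FURIN, CTSA, GNAQ, GNA11, GATA2, HIF1A, FOXO1, SMAD3, PPARA, PPARG and CCN1 were picked after their values were seen, as partners of the members or of the promoter letters.

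The genes whose profile over the 12 libraries was most like that of EDN1 were KLHL14, FGB, RAMP1, GPRC5B and F3. Likeness was the root mean square difference of log2 CPM after each gene was centred on its own mean, over 11925 candidates with a median difference of 0.604. KLHL14 differed least, by 0.203, and stood at 7.25 ± 1.56 CPM in control, 7.42 ± 0.304 with ascites, 4.5 ± 0.485 with bezafibrate and 3.71 ± 0.539 with both. FGB, the beta chain of fibrinogen, differed by 0.217 and stood at 3.62 ± 0.208, 4.71 ± 0.553, 2.04 ± 0.315 and 1.81 ± 0.300 CPM in the same order. RAMP1 differed by 0.283, GPRC5B, an orphan receptor, by 0.285 and F3 by 0.288. All 5 have lower means in both drug groups, which follows from how they were picked. EDN1 itself varied by 0.248 within groups on this scale, beside differences of 0.203 to 0.288 between it and the 5 genes.

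**Figure D4:**
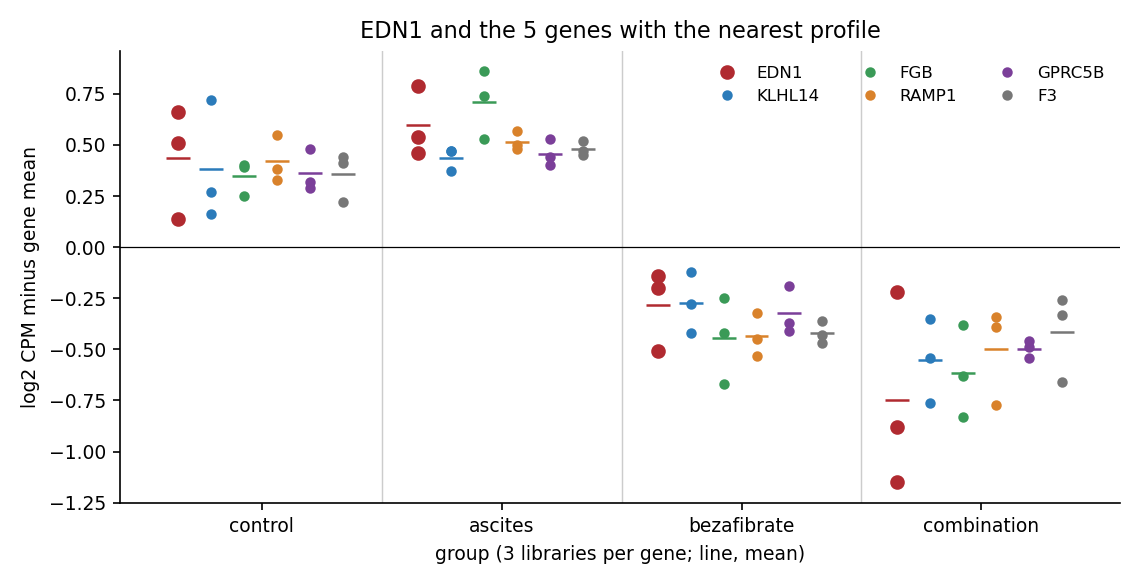
Log2 CPM minus each gene's mean over the 12 libraries for EDN1 and the 5 genes nearest to it, 1 point per library by group, with a line at each group mean. All 6 genes lie lower with bezafibrate and with both than in control or ascites; the genes were picked for this likeness (differences of 0.203 to 0.288).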

How the data were processed

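RNA-seq counts per gene were deposited by the authors as whole numbers, 1 file for each of the 12 libraries. The submitters' processing notes name GRCh38, Trimmomatic 0.39, STAR 2.7.9a, RSEM 1.3.3 and DESeq2 1.28.1, with no role or order. Whether the deposited counts are rounded RSEM estimates, the annotation and the strand setting are not given in the sources used here. Such estimates share reads among overlapping genes, which bears on ECE2.

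From the counts, edgeR 4.0.16 (R 4.3.3, limma 3.58.1) was fitted on all libraries with 1 mean per group, TMM scaling and robust quasi-likelihood F tests. filterByExpr (minimum count 10, total 15) left 12470 of 19677 genes. P-values were adjusted by Benjamini-Hochberg over all tested genes at 0.05. The log2 CPM used for likeness had a prior count of 2, and the limit of a count of 0 was 3 counts. The script was tested on simulated data. Alternatives were DESeq2 1.42.0, other scalings and filters, a replicate block, only the groups compared, and each library left out.

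The members and lists were chosen with earlier results of these data known. Named list genes had an adjusted p under 0.05 in any of 6 comparisons and a mean of at least 1 CPM, at most 6 per list by largest change. Likeness to EDN1 named 5 genes. Total counts of 11831093 to 18762759 make 1 count worth well under 1 CPM. Locations are from GENCODE v29 and the promoter from RefSeq GRCh38.p14. 1 named list gene is not reported here.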

Additional observations from a re-analysis of the deposited data

How the results depend on the processing

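EDN1 kept its sign in both drug comparisons in every alternative run, from -0.95 to -0.68 without ascites and from -1.85 to -1.23 with it when 1 library was left out. EDN1 was chosen for this fall and the alternatives reuse the same libraries, so the kept sign is no independent support. The number of endothelin members called was 0 under each alternative. EDN1 was left out of the count in the drug comparisons. It was kept in the count for the interaction, where its value is a description and no test. Summing ECE2 with its read-through neighbours gave 808 counts in place of 0, all from EEF1AKMT4. Of 3742 alternative values for 200 results on the other named genes, 3629 kept sign and call, 101 lost the call, 12 gained it and 0 reversed.

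The counts of all genes called after ascites were small and moved. Without the filter they were 59 for ascites against control, 52 for the combination against bezafibrate, 113 averaged over drug and 36 for the interaction. With only the groups compared they were 33 and 7; the averaged and interaction values need all 4 groups and were not run that way. DESeq2 gave 1 for the interaction. Leaving out 1 library gave 3 to 24, 9 to 28, 21 to 118 and 0 to 3, the highest of the first 3 all being without combination replicate 3, and 1761 to 2556 and 1742 to 2188 in the drug comparisons. The causes were not tested.

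With the replicate number as a block, the counts were 8, 14, 31 and 1 for ascites and the interaction and 2145 and 2154 for the drug. The numbers do not show pairing: 0 of 18 same-numbered pairs correlated over 0.1 (-0.135 to 0.061). Each library was also compared with the 3 libraries of every other group. In 12 of these 36 comparisons the best match had the library's own number, where unrelated numbers would give 1 in 3. Depth limits EDN1, since a library's count of it carries a counting error of 18.9% to 37.8%.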
